A study of Mus musculus with 2 samples.

Results

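The Pf4 Itga9 Stab1 macrophages were 267 cells, 181 from a control library and 86 from a natural killer (NK) cell-depleted (NK-depleted) library, of 9798 cells that passed the filter. They were chosen from the measured unique molecular identifiers (UMIs, distinct transcript molecules per gene and cell), in cells of 500 to 15000 UMIs and 200 to 4000 genes whose mitochondrial share did not pass 10%. A member held at least 3 UMIs of *Pf4* and at least 1 UMI of 3 or more of the 6 genes *Itga9*, *Olfml3*, *Abcc3*, *Itga6*, *Stab1* and *Igfbp4*. It held no UMI of the 8 genes *Lyve1*, *Cd5l*, *Folr2*, *Mmp13*, *Cdh1*, *Ace*, *Cd3e* and *Ncr1*, which mark other cells. Levels of these 15 genes in the members therefore describe the choice and are no finding. The cells were live CD45+ leukocytes sorted from subcutaneous *Braf*-mutant mouse melanomas on day 4, in C57BL/6 hosts labelled 8 weeks old. The series design and the titles name *Ptgs*-deficient tumor cells, which lack the COX enzymes of prostaglandin synthesis, in both groups, while the genotype label of both reads wild-type tumor cells. Control hosts were untreated, and NK-depleted hosts were injected on days 0 and 2 with anti-NK1.1 (200 µg) plus anti-asialo GM1 (30 µg). Tumors of a group were pooled before the sort, so each group is 1 library without a replicate, and parental melanoma cells from culture were added to both.

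Monocytes that enter a growing tumor take up macrophage programs there, and the macrophages that result differ in how much antigen presentation, interferon response, matrix remodeling and uptake of debris they show. *Pf4* encodes platelet factor 4, a chemokine best known from platelet granules that some macrophages also transcribe. *Stab1* encodes stabilin-1, a scavenger receptor, *Itga9* and *Itga6* are integrin chains that bind matrix proteins, *Olfml3* encodes a secreted matrix protein, *Igfbp4* a protein that binds insulin-like growth factors, and *Abcc3* an organic anion transporter.

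Each difference below compares this pair of libraries and was not tested, because no group had a second library. Levels are counts per 1000000 (CPM), the UMIs of a gene per 1000000 UMIs summed over the cells of a population, not divided by gene length. All intervals are exact 95% intervals and cover counting error only. The members held 1116802 UMIs in the control and 558890 in the NK-depleted library. Their median depth was 5862 and 6064 UMIs per cell, with 2139 and 2279.5 genes. Mitochondrial genes took 3.04% of the members' UMIs in the control and 3.60% in the NK-depleted library, and ribosomal protein genes took 15.5% and 13.1%. Of the barcodes of all called cells, 7 occurred in both libraries, and 0 of the members' barcodes did.

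The macrophage label held against its markers. Of the 11 macrophage markers, all 11 were detected in the members of both libraries, with *Csf1r*, the receptor for the growth factor of monocytes and macrophages, in 169 of 181 control and 74 of 86 NK-depleted members. *Maf*, a transcription factor of mature macrophages, was found in 175 and 83 members. *Ms4a7*, a macrophage membrane protein that was not used in the choice, was found in 166 and 81 members. Among the 6 platelet markers, *Gp9*, *Gp1bb*, *Itga2b*, *Tubb1* and *Gp5* were at 0 UMIs in both libraries and *Ppbp* had 14 and 9 UMIs. The resident macrophage markers *Timd4*, *Vsig4* and *Cd163*, which the choice did not bar, were also at 0. Markers of classical monocytes were split: *Ccr2*, the chemokine receptor with which monocytes leave the marrow, was in 158 and 81 members, while *Ly6c2* was in 17 and 14.

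Transcripts of other leukocytes varied by list. Neutrophil markers summed to 135 UMIs in 52 of 181 control members and 69 UMIs in 22 of 86 NK-depleted members, with *Csf3r* in 46 and 18 members and *S100a8* in 7 and 5. B cell markers summed to 49 UMIs in 34 control and 12 UMIs in 11 NK-depleted members, of which 42 and 12 were *Cd79b*, and *Ms4a1* was at 0. NK cell markers other than the barred *Ncr1* summed to 33 UMIs in 6 control members, of which 22 were *Gzma*, and to 3 UMIs in 2 NK-depleted members. T cell markers summed to 1 and 0 UMIs, mast cell markers to 0 and 0, and markers of conventional dendritic cells to 2 and 0. At least 2 genes of another cell type's list were seen in 7 control and 7 NK-depleted members, and without them the share ratio given below was 1.88 and the counts of genes higher and lower in control members were 219 and 315. *Pf4* transcripts were also seen in cells that should lack the gene, with a UMI in 15 of 192 control T cells (7.81%, median depth 2304.5 UMIs) and in 1 of 132 NK-depleted T cells (0.758%, median depth 2572.5 UMIs). The level of *Pf4* in these T cells was 151 CPM (120 to 189) in the control and 18.8 CPM (7.56 to 38.8) in the NK-depleted library.

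More cells lay near the limit of 3 of the 6 genes than near the *Pf4* limit. Of the members, 94 control and 48 NK-depleted cells held exactly 3 of the 6 genes, and a further 129 and 49 cells with 2 of the 6 met every other condition. At the *Pf4* limit there were 4 and 3 members with 3 UMIs, and 5 and 9 cells with 2 UMIs that met all else. Just outside the limit *Ms4a7* was lower, in cells with 2 of the 6 genes at 765 CPM against 1076 in control members with 3 of the 6, and at 500 against 909 in the NK-depleted library. *Ly6c2* was at 74.0 against 29.3 CPM in the control, and at 159 against 63.8 in the NK-depleted library. Before the barred genes were applied, 515 control and 249 NK-depleted cells met the rule. Of the 334 and 163 cells that a barred gene removed, 269 and 123 held *Folr2*, followed by *Mmp13* in 104 and 63. The number of UMIs per member of *Pf4* ranged from 3 to 183 in the control, with a median of 19, and from 3 to 113 in the NK-depleted library, with a median of 18.

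The bases ahead of 6 genes are shown because the results turn on 2 groups of genes, those that mark the members and interferon-stimulated genes, and because each holds a match to a motif named here. The windows of *Olfml3*, *Irf7* and *Tap1* held no match to either motif and are not printed. They are the 250 bases before the RefSeq start of each gene, 5' to 3' on the gene's own strand, in build GRCm38.p6. Capitals mark GAGGAA, the core that ETS factors such as the macrophage regulator PU.1 bind, and the interferon-stimulated response element (ISRE), searched as GAAA, any 2 bases and GAAA, both on either strand.
*Pf4*, chr5:90772185-90772434, plus strand: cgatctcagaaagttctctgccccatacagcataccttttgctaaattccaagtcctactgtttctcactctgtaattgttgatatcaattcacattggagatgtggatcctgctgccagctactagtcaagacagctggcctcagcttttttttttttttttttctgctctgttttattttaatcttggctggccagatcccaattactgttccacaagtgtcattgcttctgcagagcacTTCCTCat
*Stab1*, chr14:31168642-31168891, minus strand: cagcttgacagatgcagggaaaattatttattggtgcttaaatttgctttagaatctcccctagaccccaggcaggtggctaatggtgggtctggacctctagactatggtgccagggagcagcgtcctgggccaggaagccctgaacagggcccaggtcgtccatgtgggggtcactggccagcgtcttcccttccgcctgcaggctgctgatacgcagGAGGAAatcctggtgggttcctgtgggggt
*Isg15*, chr4:156200819-156201068, minus strand: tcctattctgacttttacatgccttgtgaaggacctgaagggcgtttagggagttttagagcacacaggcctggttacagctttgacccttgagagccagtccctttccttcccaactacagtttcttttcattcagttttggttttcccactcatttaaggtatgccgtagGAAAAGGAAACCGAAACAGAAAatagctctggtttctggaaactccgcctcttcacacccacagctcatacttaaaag
*Bst2*, chr8:71537473-71537722, minus strand: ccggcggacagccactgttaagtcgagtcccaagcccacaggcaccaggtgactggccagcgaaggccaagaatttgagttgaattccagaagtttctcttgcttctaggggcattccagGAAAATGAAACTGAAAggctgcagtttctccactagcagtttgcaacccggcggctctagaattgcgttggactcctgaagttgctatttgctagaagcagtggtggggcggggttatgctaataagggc
*Ifit1*, chr19:34640639-34640888, plus strand: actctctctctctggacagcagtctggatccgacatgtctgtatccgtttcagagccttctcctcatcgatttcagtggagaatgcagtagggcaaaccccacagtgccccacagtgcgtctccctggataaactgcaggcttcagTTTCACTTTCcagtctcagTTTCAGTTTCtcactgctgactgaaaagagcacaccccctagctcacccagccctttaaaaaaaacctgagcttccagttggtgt
*Rsad2*, chr12:26456453-26456702, minus strand: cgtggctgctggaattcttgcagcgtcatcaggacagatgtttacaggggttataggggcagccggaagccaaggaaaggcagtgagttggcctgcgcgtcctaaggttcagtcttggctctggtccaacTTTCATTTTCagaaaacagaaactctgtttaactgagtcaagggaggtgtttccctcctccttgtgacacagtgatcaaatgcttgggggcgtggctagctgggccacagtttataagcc
In these windows, *Pf4* and *Stab1* each held 1 match to GAGGAA, *Isg15* held 3 overlapping ISRE matches, *Bst2* and *Ifit1* held 2, and *Rsad2* held 1. Among the 32851 promoter windows of the same length in the table, 23.3% held GAGGAA and 2.98% held an ISRE match. A match is a description of letters and not a bound site.

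The members were a larger share of the control library. They were 181 of 5292 control cells, or 3.42% (2.95 to 3.95), and 86 of 4506 in the NK-depleted library, or 1.91% (1.53 to 2.35), with a control-to-depleted ratio of 1.79 (1.38 to 2.34). The control library also held 579 cells with NK cell markers against 2, and without these cells the shares were 3.80% and 1.91%, with a ratio of 1.99 (1.53 to 2.60). Among monocytes and macrophages by marker gate, the members were 164 of 2445 control cells (6.71%) and 74 of 2252 NK-depleted cells (3.29%), a ratio of 2.04 (1.54 to 2.72). This gate took cells with *Csf1r*, at least 2 of 4 further markers (*Adgre1*, *Fcgr1* and *Cd14* among them), and no *Cd3e*, *Ncr1*, *Cd79a* or *Flt3*. Because the choice needs detected UMIs, the count was repeated with each cell of at least 2000 UMIs thinned to 2000. This left 79 of 4084 control and 35 of 3567 NK-depleted cells, a ratio of 1.97. The level of *Pf4* itself differed between the libraries beyond the members, with 2007 CPM (1984 to 2030) in other control monocytes and macrophages and 660 CPM (647 to 673) in the NK-depleted ones. A share set by a minimum of *Pf4* UMIs cannot be told apart from that difference. Without the *Pf4* condition, and with 4 of the 6 genes required, 94 and 46 cells remained, a ratio of 1.74. All 6 genes were also higher in the other control monocytes and macrophages, from 1.18-fold for *Stab1* to 2.24-fold for *Olfml3*. The ratio of 1.74 cannot be told apart from that difference either.

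**Figure D1:**
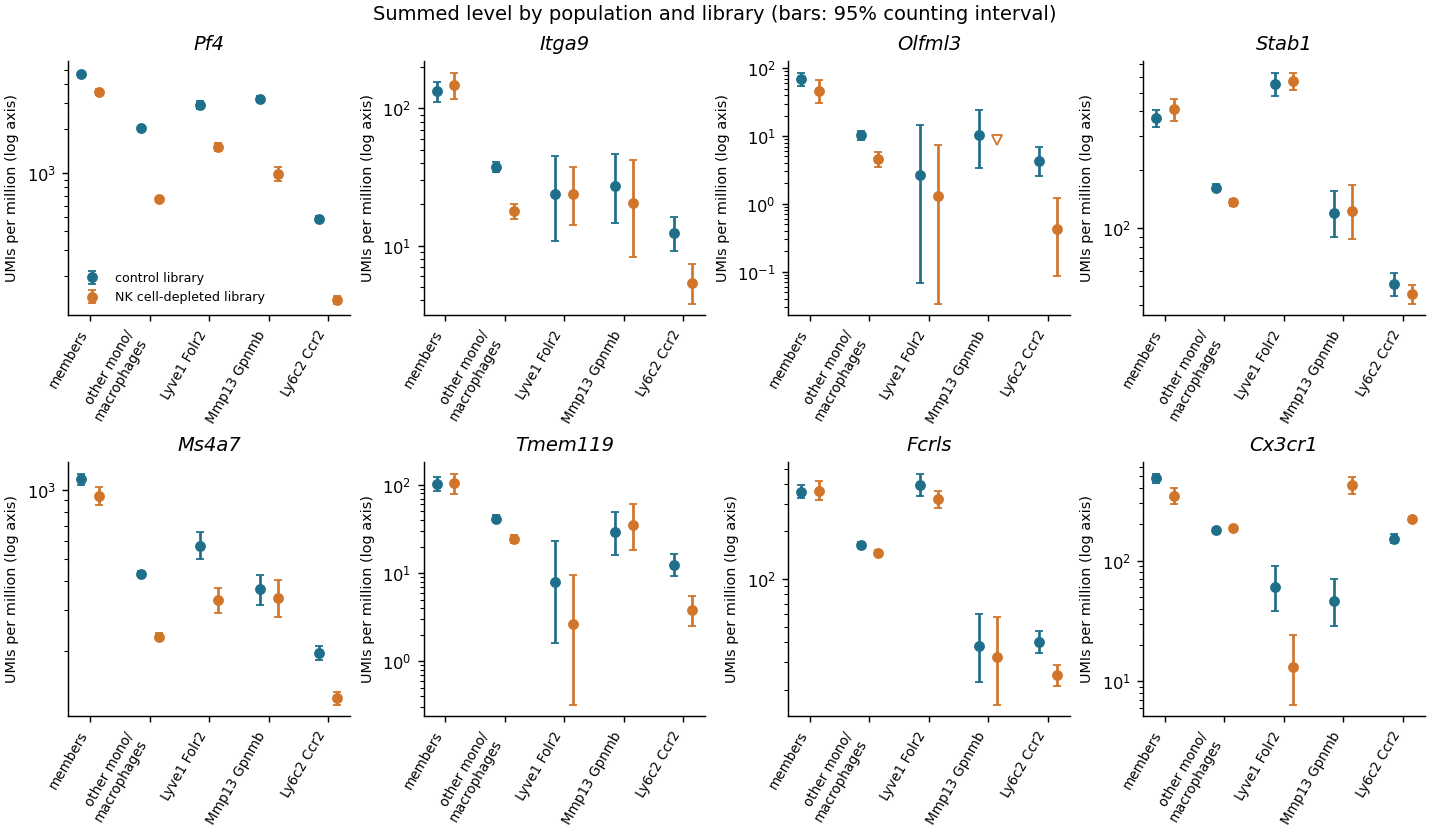
Level in CPM (log axes, scaled per gene) of 8 genes in the members, the other monocytes and macrophages and 3 further gates, for the control and the NK-depleted library. Bars are 95% counting intervals, and the open triangle marks the level of 3 UMIs where a gene had none. *Ms4a7* and *Tmem119*, which were not used in the choice, were highest in the members of both libraries. *Pf4*, *Itga9*, *Olfml3* and *Stab1* are genes of the choice, so their levels in the members are no finding. *Itga9* and *Olfml3* were also highest there, while *Stab1* was higher in the *Lyve1* *Folr2* cells.

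What else set the members apart was read against the other monocytes and macrophages of the same library, 2281 control and 2178 NK-depleted cells. The members were chosen on UMIs of these same cells, so the differences are a description of the chosen cells. Outside the 15 genes of the choice, 15 genes were at least 2-fold higher in the members of both libraries with intervals that leave out 1, which is 0.434% of the 3459 genes seen in at least 20% of the members of each library. The largest lesser fold was that of *Pmepa1*, a membrane protein that restrains TGF-beta signaling. It stood at 154 CPM in control members against 47.6 in the other cells, 3.24-fold (2.72 to 3.83), and at 159 against 28.2 in the NK-depleted library, 5.65-fold (4.44 to 7.13). *Ms4a7* stood at 1113 against 431 CPM in the control, 2.58-fold (2.43 to 2.74), and at 943 against 230 in the NK-depleted library, 4.11-fold (3.74 to 4.50).

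*Tmem119*, a membrane protein used as a marker of microglia, the macrophages of the brain, was at 103 CPM in control members and 41.6 in the other cells, 2.47-fold (2.01 to 3.02). In the NK-depleted library it was at 104 against 24.3, 4.27-fold (3.18 to 5.65). *Fcrls*, an Fc receptor-like scavenger receptor, was at 358 against 164 in the control, 2.19-fold (1.96 to 2.43), and at 363 against 147 in the NK-depleted library, 2.47-fold (2.13 to 2.86). *Cx3cr1*, the receptor for the chemokine fractalkine, was 2.72-fold higher in control members (2.48 to 2.99) but 1.87-fold higher in the NK-depleted ones (1.61 to 2.17), so it did not meet the 2-fold rule in both and is not one of the 15.

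Others of the 15 act at the cell surface. *Cd93*, a receptor linked to uptake and adhesion, was at 668 against 270 CPM in the control, 2.47-fold (2.28 to 2.67), and at 635 against 269 in the NK-depleted library, 2.36-fold (2.11 to 2.63). *Mmp14*, a membrane-bound matrix protease, was 2.05-fold higher in control members and 4.53-fold higher in NK-depleted ones. *Cxcl16*, a chemokine that also serves as a scavenger receptor, was 2.03-fold and 3.53-fold higher. *Itgb5*, an integrin chain that takes part in the uptake of apoptotic cells, was 2.23-fold and 2.83-fold higher. The other genes were *Acp5*, an acid phosphatase of osteoclasts and macrophages (2.58-fold and 4.12-fold), *Gatm*, an enzyme of creatine synthesis (2.41-fold and 3.85-fold), *Cpd*, a carboxypeptidase (2.21-fold and 4.32-fold), *Tspan4*, a tetraspanin (2.29-fold and 3.49-fold), the secreted ribonuclease *Rnase4* (2.21-fold and 2.17-fold), *Abcg3* (2.29-fold and 2.21-fold) and *Hmgn1*, a nucleosome-binding protein (2.09-fold and 2.61-fold). Of the 20 genes with the largest lesser fold, *Hpgds*, *Slc27a1*, *Ntpcr*, *Cx3cr1* and *Cd72* fell short of 2-fold in at least 1 library. Between the libraries' members, *Abcg3* alone of the 15 was past 1.5-fold with an interval that leaves out 1, with 133 CPM in the control and 80.5 in the NK-depleted members, a ratio of 1.65 (1.17 to 2.35). The count of 15 moved with the choice of cells and was 9 where 2 of the 6 genes were enough, 23 where 4 were required and 38 where no gene was barred.

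**Figure D2:**
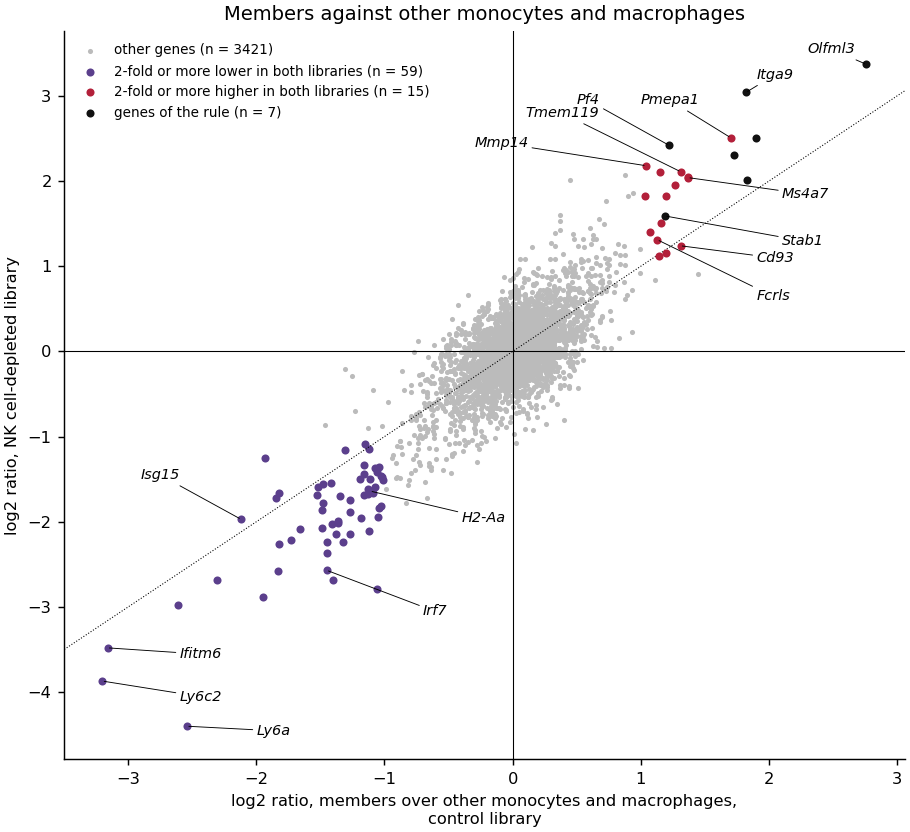
Each point is a gene, with the log2 ratio of members over other monocytes and macrophages in the control library (x axis) and in the NK-depleted library (y axis). Red points are the 15 genes at least 2-fold higher and violet points the 59 genes at least 2-fold lower in the members of both libraries, black points are the 7 required genes, and the dotted line marks equal ratios.

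More genes were low in the members than high. By the same rule, 59 genes were at least 2-fold lower in the members of both libraries, 1.60% of the 3696 genes seen in at least 20% of the other monocytes and macrophages of each library. Genes of inflammatory monocytes led them. *Ly6c2*, a surface protein of such monocytes, stood at 49.2 CPM in control members against 456 in the other cells, a ratio of 0.108 (0.0814 to 0.141), and at 46.5 against 695 in the NK-depleted library, a ratio of 0.0669 (0.0437 to 0.0981). *Plac8* (ratios of 0.201 and 0.155), the proteoglycan gene *Vcan* (0.159 and 0.118) and *Ly6a* (0.170 and 0.0438) were low too. *Ccr2* was less so, with 1212 against 1492 CPM in the control and 1147 against 1910 in the NK-depleted library.

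Interferon-stimulated genes and MHC class II genes were also among the low genes of this comparison with the pooled other cells. Of the type I interferon list, 10 of the 21 genes tested were at least 2-fold lower in the members of both libraries and 0 were higher, namely *Isg15*, *Oas3*, *Irf7*, *Ddx58*, *Zbp1*, *Rtp4*, *Ifi27l2a*, *Ifitm3*, *Stat2* and *Ifi211*. *Irf7*, the transcription factor that amplifies interferon responses, stood at 62.7 against 172 CPM in the control, a ratio of 0.364 (0.283 to 0.462), and at 30.4 against 186 in the NK-depleted library, a ratio of 0.164 (0.0952 to 0.263). *Isg15*, a ubiquitin-like protein, stood at 45.7 against 201 and at 35.8 against 144. Of the 8 MHC class II genes tested, 5 were lower. *H2-Ab1*, a chain of the peptide-presenting molecule, stood at 1399 against 3073 CPM in the control, a ratio of 0.455 (0.433 to 0.479), and at 948 against 2914 in the NK-depleted library, a ratio of 0.325 (0.298 to 0.355). *H2-Aa*, *H2-Eb1*, *H2-DMb1* and *Ciita*, the master regulator of the class, were the others. Of the IFN-gamma list, 3 of 15 genes tested were lower, *Irf1*, *Irgm1* and *Ciita*, and of the 11 MHC class I genes 0 were. The promoter letters shown above for *Isg15* recurred among the low genes: 45 of the 59 had a promoter window in the table, and 10 of these (22.2%) held an ISRE match, against 2.98% of all windows. Of the 11 high genes with a window, 0 held it and 2 held GAGGAA (18.2%). GAGGAA was held by 17 of the 45 low genes (37.8%) and by 23.3% of all windows.

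The members were also set against narrower gates, made of cells with UMIs of both genes that name each gate (at least 2 UMIs for *Ly6c2*). All 15 were at least 2-fold higher in the members than in *Ly6c2* *Ccr2* cells (743 control and 1224 NK-depleted cells) in both libraries. Against *Mmp13* *Gpnmb* cells (87 and 67 cells), 10 of the 15 were, and *Acp5*, *Cd93*, *Cpd*, *Mmp14* and *Tspan4* were not. Against *Lyve1* *Folr2* cells (49 and 88 cells), 9 of the 15 were, and *Abcg3*, *Fcrls*, *Hmgn1*, *Ms4a7*, *Rnase4* and *Tspan4* were not. *Rnase4* was lower in the members than in these cells of both libraries, at 279 against 388 CPM in the control and 302 against 476 in the NK-depleted library. *Fcrls* was at 396 CPM (335 to 464) in control *Lyve1* *Folr2* cells and at 320 (281 to 363) in the NK-depleted ones, close to the members' 358 and 363. *Tmem119* had 3 UMIs in all control and 2 in all NK-depleted *Lyve1* *Folr2* cells, or 7.91 CPM (1.63 to 23.1) in the control and 2.64 (0.320 to 9.55) in the NK-depleted library. Low interferon and MHC class II levels did not set the members apart from every gate. The summed type I interferon list stood at 2870 CPM in control and 2305 in NK-depleted members. It stood at 2797 and 1401 in *Mmp13* *Gpnmb* cells and at 9893 and 7070 in *Lyve1* *Folr2* cells. The MHC class II list stood at 9508 and 6787 in the members, 6499 and 4321 in *Mmp13* *Gpnmb* cells and 8390 and 6961 in *Lyve1* *Folr2* cells.

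The members were not uniform. Genes were ranked by the variance over the mean of their UMIs after correction for each cell's depth, a value near 1 meaning no spread beyond counting. The median of 1838 genes with a mean of at least 0.5 UMI per member was 1.28 in the control and 1.33 in the NK-depleted library. The 15 most variable genes in both libraries fell into a few kinds. *Hmox1*, the enzyme that breaks down heme, had a value of 59.6 in the control and 134 in the NK-depleted library, and the iron storage chains *Fth1* (71.7 and 50.5) and *Ftl1* (50.1 and 25) stood beside it. *Hmox1* had no UMI in 57 control and 37 NK-depleted members, a median of 198 and 180 CPM of a cell, and a highest value of 21730 and 31480. The MHC class II genes *Cd74* (30.4 and 22.4), *H2-Aa* (21.1 and 22.8) and *H2-Ab1* (19.3 and 18.4) formed another kind, and the secreted factors *Ccl4*, *Ccl7*, *Cxcl2* and *Il1b* one more, with values of 19.7 to 25.3 in the control. *Fabp5*, a fatty acid-binding protein, *Apoe*, a lipid carrier, *Malat1*, a nuclear RNA, *mt-Co1* and *Gm42418*, a gene model that overlaps ribosomal RNA, completed the 15.

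MHC class II genes moved together from member to member. Across the 181 control and 86 NK-depleted members, Spearman's rho of *Cd74* with *H2-Aa* was 0.859 and 0.862, and with *H2-Eb1* 0.847 and 0.816. These points are cells of 1 library each and share its depth and its free RNA. All 4 of *H2-Aa*, *H2-Ab1*, *H2-Eb1* and *Cd74* were seen in 77 of 181 control members (42.5%) and in 32 of 86 NK-depleted members (37.2%), and none of them in 32 (17.7%) and 18 (20.9%). *Fth1* and *Ftl1* had a rho of 0.714 and 0.668, and *Ccl7* with its neighbor chemokine *Ccl2* one of 0.671 and 0.699. Division was rare, with at least 3 of 8 mitotic genes in 4 control and 2 NK-depleted members.

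**Figure D3:**
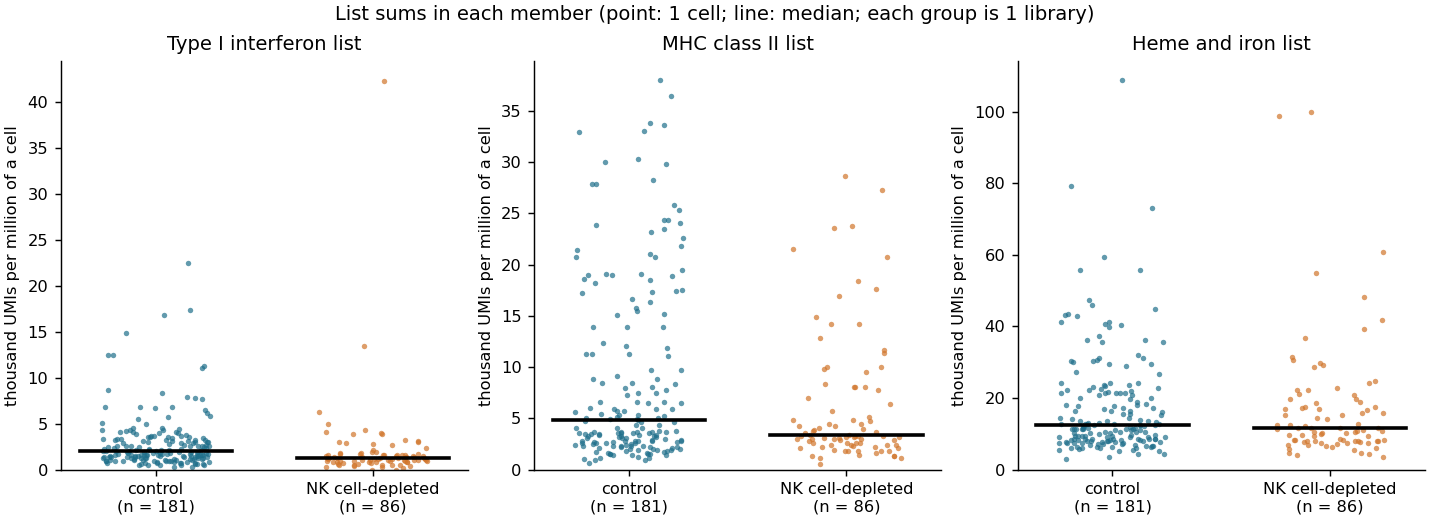
Summed level in CPM of a cell (in kilo-CPM on the axis) of the type I interferon, MHC class II and heme and iron lists, with 1 point per member and the median as a line, for 181 control and 86 NK-depleted members. In the NK-depleted library 1 member stands at 42306 CPM for the type I interferon list, against a median of 1241 CPM.

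The next comparison asked how the members differed when NK cells were removed. Of 7270 genes outside the rule with at least 20 UMIs over the members of both libraries, 236 (3.25%) were at least 1.5-fold higher in control members with an interval that leaves out 1, and 333 (4.58%) were at least 1.5-fold lower. With 4 of the 6 genes required, 154 were higher, and with cells thinned to 2000 UMIs, 68 were higher and 87 lower. Without the member with the most UMIs of each gene in each library, 340 were higher and 222 lower, so the balance of directions turned. This leaves out 1 of 86 against 1 of 181 members and so lowers the NK-depleted level more, which by itself moves ratios toward higher in the control. The median log2 ratio of control over NK-depleted members was -0.04, with quartiles of -0.33 and 0.26. In the other monocytes and macrophages the same genes had a median of -0.06. A count past the 1.5-fold rule covers counting error only, and a gene of this depth can pass it on 1 cell, so the number of cells is given where it matters. The nuclear RNA *Malat1* was higher in control members, with 29345 against 15751 CPM (1.86-fold, 1.82 to 1.91), and was similarly higher in the other cells of that library (1.75-fold), beside the shares of mitochondrial and ribosomal UMIs given above. The part of these library-wide differences in the results below was not tested.

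Interferon-stimulated genes were on balance higher in control members. Of the 30 type I interferon genes tested, 5 were higher, 2 were lower, and 22 had a ratio above 1, with a list median of 0.26 log2 against -0.04 for all genes. In the other monocytes and macrophages the median of these genes was -0.11. Summed over its genes, the list was higher in the control in the narrower gates too. It stood at 2797 against 1401 CPM in *Mmp13* *Gpnmb* cells, 9893 against 7070 in *Lyve1* *Folr2* cells and 12103 against 9768 in *Ly6c2* *Ccr2* cells. The members stood at 2870 against 2305. *Ly6c2* *Ccr2* cells were 14.0% of control and 27.2% of NK-depleted cells, and the part of this in the pooled median was not tested. The members' median was -0.07 where no gene was barred and -0.04 where cells of more UMIs or genes were let in. *Ddx58*, the RNA sensor RIG-I, had 36 UMIs in 27 control members and 5 UMIs in 5 NK-depleted ones, or 32.2 against 8.95 CPM, 3.60-fold (1.41 to 11.8). *Irf7* was seen in 47 of 181 control and 11 of 86 NK-depleted members, at 62.7 against 30.4 CPM, 2.06-fold (1.20 to 3.74). *Bst2*, the antiviral protein tetherin, was at 267 against 145 CPM, 1.84-fold (1.44 to 2.38). *Ifitm3*, which blocks the entry of viruses, was at 575 against 327 (1.76-fold, 1.49 to 2.08) and *Ifi27l2a* at 699 against 403 (1.74-fold, 1.5 to 2.02). *Bst2* was at 369 and 342 CPM in the other control and NK-depleted cells, *Ifitm3* at 1433 and 1547, and *Ifi27l2a* at 1590 and 1570.

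A single NK-depleted member held most of the UMIs behind the genes that went the other way. *Rsad2*, the antiviral enzyme viperin, had 196 UMIs in 5 NK-depleted members, of which 189 were in 1 cell, against 56 UMIs in 24 control members, a ratio of 0.143 (0.104 to 0.193). The same cell held 59 of the 60 UMIs of *Cxcl10*, a chemokine for T and NK cells, 24 of the 25 UMIs of *Ifit1*, 31 of the 35 genes of the type I interferon list and 372 of the list's 1288 UMIs (28.9%). It had 8793 UMIs in total and 17 of *Pf4*. In the control library the member with the most held 111 of 3205 such UMIs (3.46%). Without the member with the most type I interferon UMIs of each library, *Rsad2* stood at 46.8 CPM in the control and 12.7 in the NK-depleted members, a ratio of 3.68 (1.67 to 9.60), and *Cxcl10* at 32.4 against 1.82, with 36 UMIs against 1 (17.8, interval 3.0 to 724). *Isg15* moved from a ratio of 1.28 (0.748 to 2.26) to 8.09 (2.61 to 40.6). With those 2 cells left out, 10 of 26 type I interferon genes were higher in control members and 0 were lower, with a median of 0.68 log2, and over all 7246 genes tested without them 3.39% were higher and 4.55% lower. *Cxcl10* rested on few cells in the control as well, with 39 UMIs in 6 of 181 members. Without the cell of each library with the most *Cxcl10* UMIs, its ratio was 6.51 (0.977 to 276), an interval that holds 1. *Cxcl9*, an IFN-gamma-induced chemokine, had no UMI in the members of either library, which allows up to 3 UMIs per library.

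Genes that respond to IFN-gamma and present antigen went the same way with fewer calls. Of the 23 IFN-gamma genes tested, 3 were higher in control members, *Tap1* and *Cd74* among them, and 1 was lower, *Cxcl10*, on the 1 cell described above. The list median was 0.30 log2, against 0.14 in the other monocytes and macrophages. *Tap1*, which carries peptides to MHC class I, was at 104 against 53.7 CPM, 1.94-fold (1.29 to 3.0). Of the 12 MHC class I genes, *Tap1* alone was called, with a list median of 0.28. *Nlrc5*, the regulator of the class, had 25 and 7 UMIs (1.79-fold, 0.752 to 4.89), *Tap2* was at 68.1 and 48.3 CPM (1.41-fold, 0.897 to 2.27), and *H2-D1*, a classical chain, at 1327 and 986 (1.35-fold, 1.22 to 1.49). Outside the list, 2 nonclassical chains were past 1.5-fold, *H2-Q7* at 107 against 32.2 CPM (3.34-fold, 2.02 to 5.82) and *H2-T23* at 151 against 73.4 (2.06-fold, 1.46 to 2.98). *H2-Q7* has near-identical neighbors, so reads may be shared with them.

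MHC class II genes had a list median of 0.56 log2, with 8 of 9 genes above a ratio of 1. *Cd74*, the invariant chain, was seen in 116 of 181 control and 50 of 86 NK-depleted members, at 2821 against 1662 CPM, 1.70-fold (1.58 to 1.83). *H2-Eb1* was at 1015 against 623 (1.63-fold, 1.44 to 1.84) and *H2-DMb1*, which loads peptides, at 176 against 116 (1.51-fold, 1.13 to 2.03). *H2-Ab1* was at 1399 against 948 (1.47-fold, 1.34 to 1.63), and *Ciita* had 42 and 11 UMIs (1.91-fold, 0.967 to 4.12). The counting intervals of these genes do not cover the spread of the class from cell to cell. The members' summed level of the list had quartiles of 2696 and 13939 CPM around a median of 4871 in the control, and of 2411 and 8042 around 3322 in the NK-depleted library. The list's median log2 ratio depended on the choice of cells and was 0.15 where 1 UMI of *Pf4* was enough and 1.42 where 4 of the 6 genes were required. Summed over its genes, the list was also seen in T cells, at 1515 CPM in the control and 301 in the NK-depleted library. The members stood at 9508 and 6787. The part of free RNA or of doublets in the members' ratios was not tested.

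**Figure D4:**
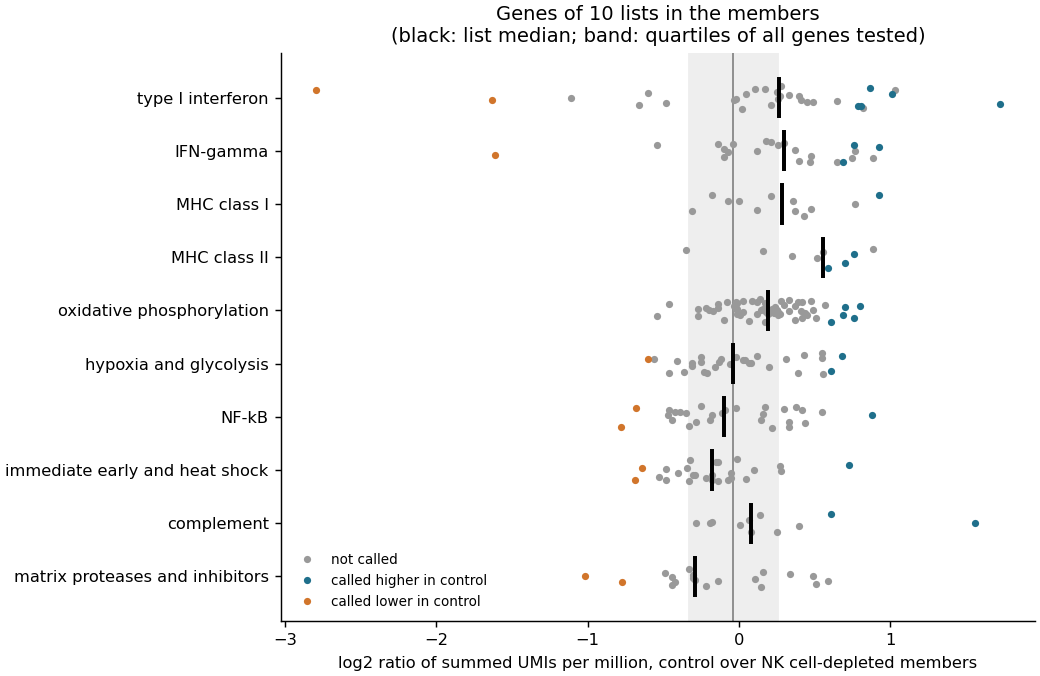
Log2 ratios of control over NK-depleted members (x axis) for the tested genes of 10 lists, with 1 point per gene, the list median in black, and the median and quartiles of all 7270 genes as a line and a band. The 2 type I interferon genes at the far left are *Rsad2* and *Ifit1*, whose UMIs came almost all from 1 NK-depleted member.

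Of the genes with at least 100 UMIs that were lower in control members also with thinned and with equally weighted cells, the 12 with the lowest ratios, gene models left out, were *Prdm1*, *Il1rn*, *Cytip*, *Smad7*, *Tnfsf9*, *Clec4e*, *Sik1*, *Alcam*, *Mmp12*, *Pld3*, *Pde4b* and *Tsix*, with ratios of 0.448 to 0.524. *Il1rn*, which encodes the antagonist of the interleukin-1 receptor, had 258 UMIs in 75 control members and 286 UMIs in 53 NK-depleted ones, or 231 against 512 CPM, a ratio of 0.451 (0.380 to 0.536). *Prdm1*, the transcriptional repressor BLIMP1, was at 53.7 against 120 CPM, a ratio of 0.448 (0.311 to 0.645), and *Smad7*, an inhibitor of TGF-beta signaling, at 51.9 against 111 (0.468, 0.322 to 0.681). *Il10*, an anti-inflammatory cytokine, had 13 UMIs in 7 control and 35 UMIs in 7 NK-depleted members, a ratio of 0.186 (0.0902 to 0.360). In the other monocytes and macrophages the ratios were 0.917 for *Il1rn*, 0.925 for *Prdm1*, 0.992 for *Smad7* and 0.528 for *Il10*. *Fn1*, the matrix protein fibronectin, was at 1236 against 2050 CPM in the members (0.603, 0.557 to 0.652) and had a ratio of 0.981 in the other cells. *Mmp12*, a macrophage elastase, was at 252 against 510 (0.493, 0.417 to 0.584), from 41 control and 26 NK-depleted members. *Clec4e*, a receptor for cell debris and fungal glycolipids, was at 95.8 against 199 (0.482, 0.366 to 0.635), and was also lower in the other control cells (0.513). *Tsix* is antisense to *Xist*, and reads of an antisense pair may be assigned with error.

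The same rule named 12 genes higher in control members, of which *H2-Q7*, *H2-T23*, *Malat1* and *Bst2* are given above. *Ccl8*, a chemokine for monocytes and T cells, had 98 UMIs in 8 control members, of which 55 were in 1 cell, and 12 UMIs in 2 NK-depleted ones (4.09-fold, 2.24 to 8.18), with a ratio of 3.55 in the other cells. *Nrp1*, a receptor for semaphorins and VEGF, was at 210 against 107 CPM (1.95-fold, 1.46 to 2.64) and had a ratio of 0.842 in the other cells. *Rnf213*, a large interferon-induced ubiquitin ligase, was at 120 against 64.4 (1.86-fold, 1.28 to 2.77), with a ratio of 0.890 in the other cells. *Arid4a*, *Tmcc3*, *Adap2*, *Cuta* and *Rufy3* had ratios of 2.83, 2.31, 2.11, 1.91 and 1.83.

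**Figure D5:**
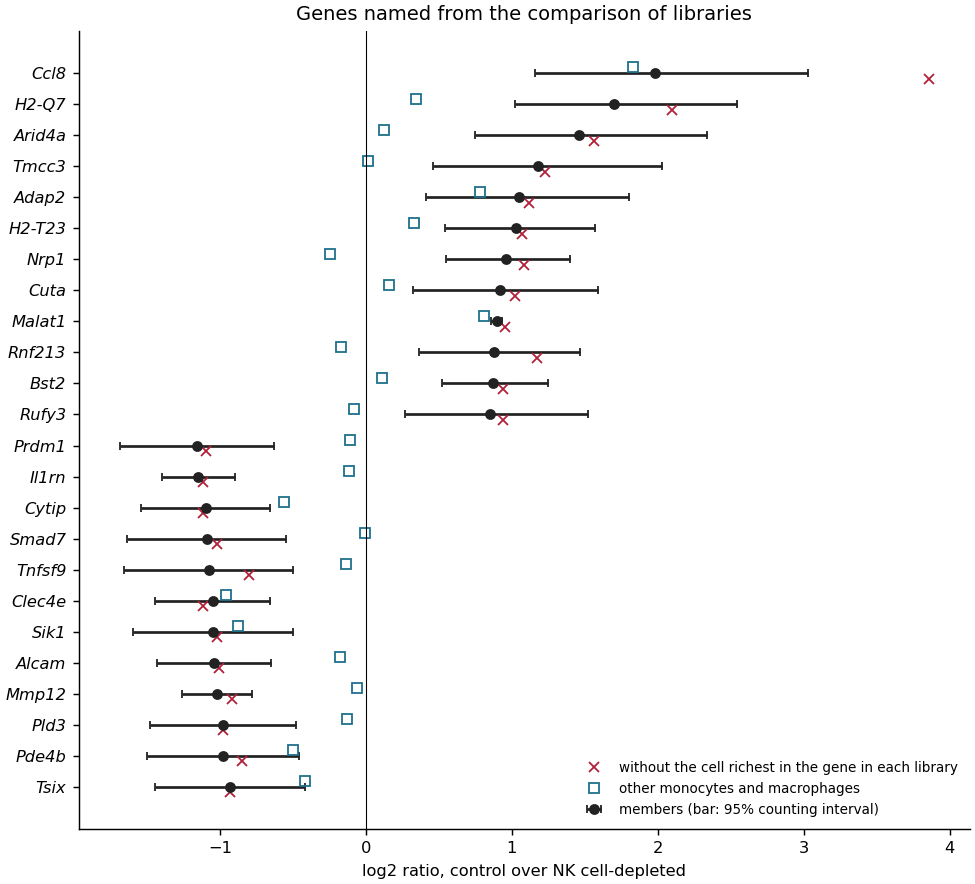
Log2 ratios of control over NK-depleted members for the 12 genes named in each direction (black points with 95% counting intervals), the same ratio without the cell of each library with the most UMIs of that gene (red crosses), and the ratio in the other monocytes and macrophages (open squares). The crosses stay on the side of the points for all 24 genes, and several squares lie near 0. Leaving out 1 of 86 against 1 of 181 members lowers the NK-depleted level more. The crosses are therefore no check of the 12 genes named as higher in control members.

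Of the 30 hypoxia and glycolysis genes tested, 2 were higher in control members, *Slc2a1*, the glucose transporter (150 against 93.0 CPM, 1.61-fold, 1.17 to 2.24), and *Eno1* (246 against 161, 1.53-fold, 1.20 to 1.96), and 1 was lower, *Mxi1* (121 against 183, 0.662, 0.508 to 0.865). The list median was -0.04, equal to that of all genes, against 0.47 in the other monocytes and macrophages. The narrower gates differed in the summed list, control against NK-depleted. It was at 20037 against 25035 CPM in *Mmp13* *Gpnmb* cells, 3275 against 3342 in *Lyve1* *Folr2* cells and 5327 against 3826 in *Ly6c2* *Ccr2* cells. Of the 64 oxidative phosphorylation genes, 5 were higher and 0 lower, *Atp5j*, *Ndufs3*, *Ndufb10*, *Ndufb11* and *Uqcrc1*, with a median of 0.19 against 0.23 in the other cells. *Atp5j*, a subunit of ATP synthase, was at 201 against 115 CPM, 1.75-fold (1.32 to 2.35).

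Lists of inflammatory signaling held calls in both directions. Of the 28 NF-kB genes tested, *Tnf* was higher in control members (64 UMIs in 32 cells against 17 in 14, 1.88-fold, 1.09 to 3.43), while *Nfkbia* (292 against 467 CPM, 0.625, 0.530 to 0.738) and *Zc3h12a* (0.584, 0.348 to 0.984), both inhibitors of the pathway's output, were lower. The list median was -0.10, and 0.07 to 0.11 under 3 alternatives. Of the 26 immediate early and heat shock genes, *Jun* was higher (781 against 469 CPM, 1.67-fold, 1.45 to 1.92) and *Nr4a1* (364 against 567, 0.641, 0.552 to 0.745) and *Hspa1a* (235 against 379, 0.618, 0.514 to 0.745) were lower, with a median of -0.18. These genes also respond to tissue digestion, and its part was not tested. Of the 21 chemokines and cytokines, 2 were higher, *Ccl8* and *Tnf*, and 4 were lower, *Cxcl10*, *Il1rn*, *Il10* and *Tnfsf9*. Of the 35 macrophage transcription factors and receptors, *Runx3* alone was called, at 179 against 270 CPM (0.663, 0.534 to 0.824). *Csf1r* was at 572 against 535 CPM, a ratio of 1.07 (0.931 to 1.23).

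Of the 11 complement genes tested, 2 were higher in control members and 0 lower. *C1qb*, a chain of the first complement component, was at 1537 against 1006 CPM (1.53-fold, 1.39 to 1.68). *C1qa* was at 1919 against 1745, a ratio of 1.1 (1.02 to 1.19). *Apoe* was at 6786 against 5318 (1.28-fold, 1.22 to 1.33), *Trem2*, a lipid-sensing receptor, at 409 against 284 (1.44-fold, 1.20 to 1.73), and *Pltp*, a phospholipid transfer protein, was the 1 called of 21 lipid genes, at 274 against 157 (1.74-fold, 1.37 to 2.23). Among 17 scavenger and uptake genes, *Mfge8*, a bridge to dying cells, was higher (45 UMIs, of which 32 in 1 cell, against 7; without the cell of each library with the most *Mfge8* UMIs the interval, 0.435 to 4.66, holds 1), and *Gas6* (0.544, 0.357 to 0.830), another such bridge, and *Cd36* (0.658, 0.523 to 0.831) were lower. Of the 12 heme and iron genes, *Blvrb* was higher (166 against 109 CPM, 1.52-fold, 1.13 to 2.06), and *Slc40a1*, the iron exporter, was lower with 21 UMIs in 10 control and 47 UMIs in 4 NK-depleted members (0.224, 0.127 to 0.381), against a ratio of 3.32 in the other cells. *Hmox1* was at 1378 against 1549, a ratio of 0.889 (0.818 to 0.968).

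Among matrix and growth genes the few calls were lower in control members, and the 1 call among adhesion genes was higher. Over all genes tested, more were lower (4.58%) than higher (3.25%) as well. *Mmp12* and *Adam9* (86.0 against 147 CPM, 0.586, 0.432 to 0.797) were the 2 of 19 matrix proteases and inhibitors, and *Fn1*, *Gas6* and *Pdgfb* (66.3 against 102, 0.650, 0.454 to 0.934) the 3 of 15 growth and repair factors. Of 18 integrins and adhesion genes, *Pecam1* was higher (41 UMIs against 10, 2.05-fold, 1.01 to 4.59). Of 19 arginine, tryptophan and checkpoint genes, *Fcgr4*, an activating IgG receptor, was higher (140 against 84.1, 1.66-fold, 1.19 to 2.35) and the costimulator *Cd80* lower (28.7 against 50.1, 0.572, 0.334 to 0.986), while *Arg1* was at 1332 against 1227 (1.09, 0.991 to 1.19). Of 16 cell cycle genes, *Mki67* and *Hmgb2* were higher and *Mcm6* was lower, and *Mki67* had 28 UMIs in 11 control members, 12 of them in 1 cell, against 4. Of the 10 prostaglandin and leukotriene genes 0 were called in either direction, and *Ptgs1* was at 13.4 and 17.9 CPM.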

How the data were processed

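Single-cell RNA-seq libraries of CD45+ cells were made from 2 groups, 1 library each, with 16000 cells loaded. The authors deposited matrices of raw UMI counts from Cell Ranger, version 3.0.2 per the file headers (the study's methods name another release), on build mm10 per the submitters' processing notes. A deposited table of normalized values for the same cells was not used. After filtering, the libraries held 24810009 UMIs (control) and 23245982 UMIs (NK-depleted). Counts were summed over members. Ratios of 2 sums carry exact conditional binomial intervals, levels Poisson intervals and shares Clopper-Pearson intervals. Scripts ran in Python 3.11.15 with SciPy 1.17.1. The rule for calling genes was tested on simulated Poisson counts without spread between cells, so that test does not cover such spread. Scrublet, in scanpy 1.11.5, called 0 control and 3 NK-depleted cells (0.0666%), too few to have worked, so doublets were not removed. Genes were named by rule: all genes of the choice, 12 per direction, up to 4 per list, 20 against other cells and 15 variable genes. *Il10* and other genes named to account for a count, *H2-Ab1* and *Ciita* among them, and the unlisted cell markers were chosen with their values seen. The members, lists and tests were chosen with earlier results of these data known. Promoters came from RefSeq, build GRCm38.p6. Some genes are not reported here.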

Additional observations from a re-analysis of the deposited data

Results flagged for a closer look

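Of 121 named genes looked at, 15 had ratios of control over NK-depleted cells on opposite sides of 1 in the members and in the other monocytes and macrophages, each with a counting interval that leaves out 1. Many of the 121 were named for a large ratio in the members, so the count is no share of all genes tested. Each population is 1 library per group, and the difference between the populations was not tested.

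Ratios above 1 in the members and below 1 in the other cells were seen for 3 MHC genes, *H2-Eb1* (1.63 against 0.950), *H2-DMb1* (1.51 against 0.861) and *H2-D1* (1.35 against 0.938), while the MHC class II list as a whole had a median above 0 in both, 0.56 and 0.16 log2. *Nrp1* (1.95 against 0.842), *Rnf213* (1.86 against 0.890) and the chemokine *Ccl3* (1.47 against 0.955) had the same pattern. The opposite pattern was seen for *Slc40a1* (0.224 against 3.32), *Pdgfb* (0.65 against 1.36), *Mxi1* (0.662 against 1.22), *Runx3* (0.663 against 1.13), *Cpd* (0.692 against 1.35) and *Mmp14* (0.75 against 1.65). *Rsad2* (0.143 against 1.16), *Ifit1* (0.32 against 1.34) and *Cxcl10* (0.325 against 1.73) also had it, but their UMIs in the NK-depleted members came almost all from 1 cell. Without the cell of each library with the most UMIs of the gene in question, their ratios in the members were 2.86 (1.27 to 7.57), 5.5 (0.8 to 237) and 6.51 (0.977 to 276). The intervals of *Ifit1* and *Cxcl10* hold 1.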

How the results depend on the processing

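Of 147 alternative values, 126 kept their direction and stayed within 1.5 times the count, within the interval of the share ratio or, for a list median, within the median half-width of its genes' intervals. That width is large, and the type I interferon median of 0.26 ranged from 0.02 to 0.81 among these. The 126 also hold every value of the alternative without Scrublet-called cells. It took out 0 control members and 1 NK-depleted member, so its values could hardly move. The ratio of member shares ranged from 1.52 to 2.04 over its 12 alternatives, and the medians of the IFN-gamma and oxidative phosphorylation lists stayed above 0 in theirs. The count of genes higher in control members was 144 with *Pf4* left out and 4 of the 6 genes required, 154 with 4 of the 6 required and 68 with thinned cells, where 87 were lower and 79 and 35 members were left. The count of genes higher than in other monocytes and macrophages was 9 with 2 of the 6 genes, 23 with 4 of the 6 and 38 with no gene barred. The type I interferon median was -0.07 with no gene barred, -0.04 with deeper cells let in and 1.23 with thinned cells. The MHC class II median was 0.15 with 1 UMI of *Pf4*, 0.19 with 2 of the 6 genes, 0.20 with no gene barred, 0.35 with at least 2000 UMIs and at most 5% mitochondrial UMIs, 0.78 without *Pf4*, 0.86 with thinned cells and 1.42 with 4 of the 6 genes. The hypoxia median was 0.03 with cells weighted equally. The NF-kB median was 0.07 without *Pf4*, 0.09 with 4 of the 6 genes and 0.11 without the member with the most UMIs of each gene. Under this last alternative 340 genes were higher and 222 lower in control members. It and the one without the interferon-rich members were chosen after seeing the data, and the last takes 1 of 86 against 1 of 181 members, so that it lowers the NK-depleted level more. Thinning left fewer members and UMIs, and otherwise the cause was not tested. No paired analysis was possible because each group is 1 library. Depth limits genes of few UMIs, and no interval covers the spread between tumors.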
